A study of Homo sapiens with 6 samples.

Results

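VIM, CDH2, NEFM, NEFL, UCHL1, CKB, DPYSL3, TUBB2B, STMN2 and NES are 10 genes best known from neural and mesenchymal cells, and several of them are also known from embryonic kidney cell lines. They were followed in 6 samples labelled HCC1954, a HER2-positive breast cancer cell line, given either TBK1 inhibitor II (n = 3) or vehicle only (n = 3) for 3 days. TBK1 inhibitor II is a compound named for the kinase TBK1, which acts in innate immune signalling, and the labels state neither its dose nor the vehicle. All 6 samples share the cell line and the treatment time. The genes were chosen for their signal on these arrays and for where they are usually expressed, so their levels are a description and are not tested. All 10 were on the array, among 20045 named genes, through 12 probes. VIM and STMN2 had 2 probes each and the others 1. Whether the 3 samples of a group were cultured apart is not given in the labels, and the spread behind each p-value may thus be technical.

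The products of these genes build and steer the cytoskeleton or belong to the enzyme equipment of nerve cells. VIM encodes vimentin, the intermediate filament of mesenchymal cells, NES encodes nestin, the filament of neural progenitors, and NEFL and NEFM encode the light and medium subunits of the neurofilaments that fill axons. CDH2 encodes N-cadherin, an adhesion receptor of neural and mesenchymal cells, while breast epithelial cells mainly use E-cadherin, the product of CDH1. TUBB2B is a beta-tubulin of developing neurons, STMN2 destabilises microtubules in growth cones, and DPYSL3 belongs to the family that relays semaphorin signals to the cytoskeleton. UCHL1 is a deubiquitinating enzyme abundant in neurons, and CKB is the brain form of creatine kinase. Lines derived from human embryonic kidney are known to contain neurofilament subunits and other neuronal proteins along with vimentin.

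Upstream sequence is shown for VIM and TUBB2B, the members with the smallest p-value on either side of the comparison below, and for CKB, whose probe lay between the 97.8th and the 98.7th percentile of the arrays. The 120 bases before each RefSeq start (GRCh38.p14) are printed 5′ to 3′ on the strand of the gene, and the capitals mark matches on either strand to 3 short promoter elements. The first, searched as TATAAA, is the element that positions the start of transcription in many tissue-specific genes. The second, searched as CCAAT, is the element bound by the factor NF-Y and is named after its letters. The third, searched as GGGCGG, is the GC box bound by factors of the SP family. The windows are chr10:17228121-17228240 on the plus strand for VIM, chr6:3227654-3227773 on the minus strand for TUBB2B and chr14:103522831-103522950 on the minus strand for CKB.
VIM: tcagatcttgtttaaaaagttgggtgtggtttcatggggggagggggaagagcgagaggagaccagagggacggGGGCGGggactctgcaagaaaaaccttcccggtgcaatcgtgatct
TUBB2B: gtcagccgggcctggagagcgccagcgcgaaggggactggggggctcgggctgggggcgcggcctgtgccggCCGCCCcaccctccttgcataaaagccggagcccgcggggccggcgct
CKB: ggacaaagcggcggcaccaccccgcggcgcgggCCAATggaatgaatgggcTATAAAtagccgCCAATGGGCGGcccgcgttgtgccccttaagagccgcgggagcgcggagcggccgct
In CKB the second CCAAT box is followed directly by the GC box, so the 2 matches read as 1 capital run. RefSeq windows were matched for 7 of the 10 members, with 2 windows each for CDH2 and DPYSL3. A GC box was found in 6 of the 7, a CCAAT box in 2 (CDH2 and CKB) and a TATA box in 3 (CDH2, UCHL1 and CKB), where 34% of all 35116 windows of this length held a GC box, 20.4% a CCAAT box and 5.63% a TATA box. Members were counted per gene and the shares per window. The TATA match of UCHL1 was on the opposite strand, and that of CKB began at base -69 from the start. These matches describe the letters only.

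The arrays were Illumina HumanHT-12 V4.0 beadchips, on which a probe's brightness is its signal intensity and a detection p-value sets that brightness against the negative control probes of the same array. A probe counts as detected here when this p is under 0.05. Between 19676 and 20741 of 47321 probes were detected on the inhibitor arrays, and between 18325 and 20127 on the vehicle arrays. The median signal intensity was 110.7 to 130.7 on the inhibitor arrays and 98.5 to 138.1 on the vehicle arrays, with the highest value on vehicle replicate 3. For 9 of the 12 member probes the brightest of the 6 raw signals was also that of vehicle replicate 3, so raw signals are followed by normalized ones wherever groups are compared. Genes of the labelled cell type were detected in part. Of 23 breast and general epithelial genes 7 were detected throughout (30.4%), ERBB2 among them, against 48.8% of all named genes. The 9 detected on none were GRB7, KRT5, KRT7, KRT14, KRT16, KRT19, CLDN3, CLDN7 and ESRP1. Of the 3 ERBB2 probes 2 were detected on 0 arrays, as were all 3 GRB7 probes. The detected ERBB2 probe lay between the 84.4th and the 87.1th percentile of the arrays. Whether the cells are HCC1954 was not tested, and the name is used here only as the label.

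Vimentin RNA lay near the top of every array. The brighter of the VIM probes (ILMN_1782538) had signal intensities of 4509, 5737 and 5684 on the inhibitor arrays, against 5241, 5650 and 8500 on the vehicle arrays. The other probe (ILMN_2058251) had 2283, 2895 and 3131 with inhibitor and 2886, 3119 and 4081 with vehicle. Raw signals of the groups overlapped for both probes, and vehicle replicate 3 was the highest for both. Ranked among all probes of its own array, the brighter probe lay between the 98.1th and the 98.8th percentile and the other between the 96.7th and the 97.7th. A percentile of this kind places a probe on its array. It does not rank the genes by abundance, since each probe has its own binding strength.

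The neurofilament subunits differed in their place on the arrays, although NEFM and NEFL are direct neighbours among the protein-coding genes of GRCh38.p14. NEFM had signal intensities of 1957, 2039 and 2639 with inhibitor and 1286, 1967 and 3834 with vehicle, between the 95.4th and the 97.0th percentile. Its vehicle samples held both the lowest and the highest of the 6 values. NEFL had 182.5, 249.3 and 268.2 with inhibitor and 190.5, 182.0 and 284.1 with vehicle, between the 75.8th and the 80.0th percentile, and was detected on all 6 arrays. NES was dimmer still, with 131.2, 136.3 and 148.8 in the inhibitor samples and 109.4, 115.4 and 158.8 in the vehicle samples. Its detection p-values ran from 0.00649 to 0.0260, and 1 of the 6 was under 0.01. NES lay between the 63.1th and the 66.9th percentile, a place shared with the middle of all named genes, whose median was at the 65.4th. The nestin signal was thus detected close to background.

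Among the genes of adhesion and microtubules, CDH2 and TUBB2B were bright and STMN2 was mostly not detected. CDH2 had signal intensities of 1277, 1653 and 1905 with inhibitor, against 931.0, 904.5 and 1537 with vehicle, between the 93.4th and the 94.8th percentile. TUBB2B had 1994, 2627 and 2838 with inhibitor and 1067, 1338 and 2623 with vehicle, between the 94.5th and the 96.4th percentile. In both genes vehicle replicate 3 reached into the range of the inhibitor samples, while the other vehicle samples lay below it. TUBB2B and TUBB2A are near-identical neighbours, and whether the TUBB2B probe also binds TUBB2A RNA was not tested. DPYSL3 had 778.3, 1022 and 1264 in the inhibitor samples and 731.1, 743.8 and 1390 in the vehicle samples, between the 91.7th and the 92.8th percentile. Neither STMN2 probe was a steady signal. Probe ILMN_1795679 had 100.5, 114.5 and 124.4 with inhibitor and 93.5, 100.7 and 123.1 with vehicle and was detected on 0 arrays. Probe ILMN_2126038 had 95.3, 121.0 and 145.3 with inhibitor and 86.9, 92.4 and 145.4 with vehicle and was detected on 1 array of each group. STMN2 is thus named among the members without a level that stood above background on most arrays.

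The enzymes UCHL1 and CKB were bright on all arrays. UCHL1 had signal intensities of 2137, 3156 and 3603 with inhibitor and 2093, 1875 and 3736 with vehicle, between the 96.4th and the 97.1th percentile. CKB had 5123, 4638 and 5500 with inhibitor and 4174, 5637 and 7085 with vehicle, between the 97.8th and the 98.7th percentile. The groups overlapped in both genes.

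**Figure D1:**
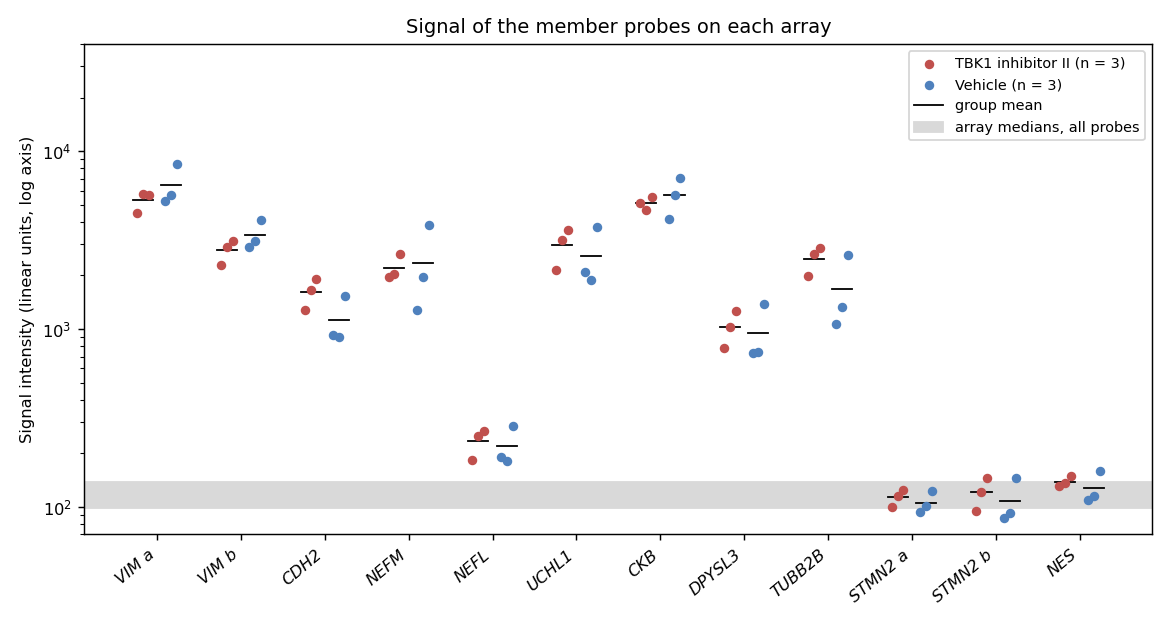
Signal intensity (linear units on a log axis) of the 12 member probes on each array, with the 3 inhibitor arrays left of the 3 vehicle arrays and bars at the group means; VIM a is ILMN_1782538, VIM b ILMN_2058251, STMN2 a ILMN_1795679 and STMN2 b ILMN_2126038. VIM and CKB lie highest, NEFL lies well below NEFM on its own probe, and STMN2 and NES lie within or near the grey band of array medians (98.5 to 138.1).

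Of the 10 members 9 were detected on all 6 arrays through their brightest probe (90%), against 48.8% of all named genes, and 7 lay above the 90th percentile on every array. Since signal was a reason for choosing them, these shares describe the choice. Their place did not extend to all of their relatives. Among 8 other intermediate filament genes, of type III, of type IV or of the beaded filaments of the lens (BFSP1 and BFSP2), 3 were detected on all arrays and 2 on none, the muscle filament DES and the glial filament GFAP. The 3 were PRPH, the peripheral neuron filament peripherin (median signal intensity 281.7), SYNM, which encodes synemin (178.4), and NEFH, the heavy neurofilament subunit (124.8). INA, which encodes alpha-internexin, was detected on 2 arrays.

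Of 16 other classical cadherins 2 were detected throughout, CDH12 (median signal intensity 299.7) and CDH1 (164.7), and 6 on none, among them the kidney cadherin CDH6 and the mesenchymal cadherin CDH11. CDH1 lay between the 69.3th and the 74.6th percentile on its single probe. The relatives of STMN2, DPYSL3, UCHL1 and CKB were mostly detected, with 9 of 13 on all arrays and 3 on none. CKMT1A, a mitochondrial creatine kinase nearly identical to CKMT1B, had a median signal intensity of 1836, the deubiquitinating enzymes UCHL3 and UCHL5 had 1909 and 1130, and DPYSL2 had 1146. The muscle creatine kinases CKM and CKMT2 and the stathmin gene STMN4 were detected on none. Of 14 other tubulin genes 11 were detected on all arrays, and TUBA1A, TUBA1B, TUBA1C and TUBB had the highest signals, between 6384 and 21894.

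Markers of neural cells were detected in part, where 48.8% of all named genes were detected on all arrays. Of 23 neuronal genes 4 were detected throughout (17.4%), 12 on some and 7 on none, and the list's median lay at the 61.5th percentile, below the 65.4th of all named genes. The 4 were NSG1, a protein of neuronal endosomes (median signal intensity 401.9), MAPT, the microtubule protein tau (315.6), NCAM1, a neural adhesion molecule (298.2), and SYT1, the calcium sensor of synaptic vesicles (153.8). DCX, ELAVL4, RBFOX3, CHGB, SCG2, SCG3 and GNG3 were detected on none, among them defining genes of young and mature neurons and of secretory granules. Of 20 neural stem and glial genes 9 were detected on all arrays (45%) and 7 on none. SOX4 and SOX2, transcription factors of progenitor cells, had median signal intensities of 1983 and 380.8, the zinc finger factor ZIC2 had 1270 and the POU factor POU3F2 had 350.7. SOX1, SOX11, HES5, PROM1, S100B, ALDH1L1 and ZIC1 were detected on none.

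Genes of the kidney were split between its development and its mature cells. Of 17 regulators of kidney development 7 were detected throughout (41.2%, against 48.8% of all named genes). They were led by FOXD1, a factor of the renal stroma (median signal intensity 1035), CITED1, a co-regulator of the nephron progenitors (575.8), HOXD11 (344.4) and EMX2 (313.0). WT1, EYA1 and MEIS1 were the others, and PAX2, PAX8 and CDH6 were detected on none. Of 13 genes of differentiated nephron cells 1 was detected on all arrays, PODXL, which encodes podocalyxin (266.6), and 9 on none, among them LRP2, CUBN, NPHS1 and SLC12A1. Of 12 adrenal genes 0 were detected on all arrays and 11 on none. In the neural, kidney and adrenal lists the share detected throughout was below that of all named genes. The share in the breast and epithelial list was below it as well (30.4%). The identity of the cells, be it neural, embryonic kidney or breast, is not read from these counts and was not tested. No member is a marker of kidney alone, and most genes of the neuronal list were not detected on all arrays. Among its cytoskeletal genes MAPT was detected on all 6 arrays, MAP2 and MAP1B on 4 each and DCX on none.

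Markers of other cell types were also detected in part, where 48.8% of all named genes were detected on all arrays. Of 20 mesenchymal genes 8 were detected on all arrays (40%) and 8 on none. SNAI2, a repressor of epithelial genes, had a median signal intensity of 1345, the collagen gene COL3A1 had 555.4, LUM 413.6 and ACTA2 282.2, while COL1A2, SPARC, THY1, FAP, PDGFRA, PDGFRB, SNAI1 and ZEB1 were detected on none. Of 11 leukocyte and endothelial genes 2 were detected on all arrays, CD68 (271.0) and HLA-DRA (160.0), and 8 on none, PTPRC and PECAM1 included. In the breast and epithelial list the highest signals were those of the factors TFAP2A (602.5) and TFAP2C (337.2), of ERBB2 (405.3) and of KRT18 (199.5). In bulk RNA, cells of another type within a sample and a low level in every cell cannot be told apart.

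**Figure D2:**
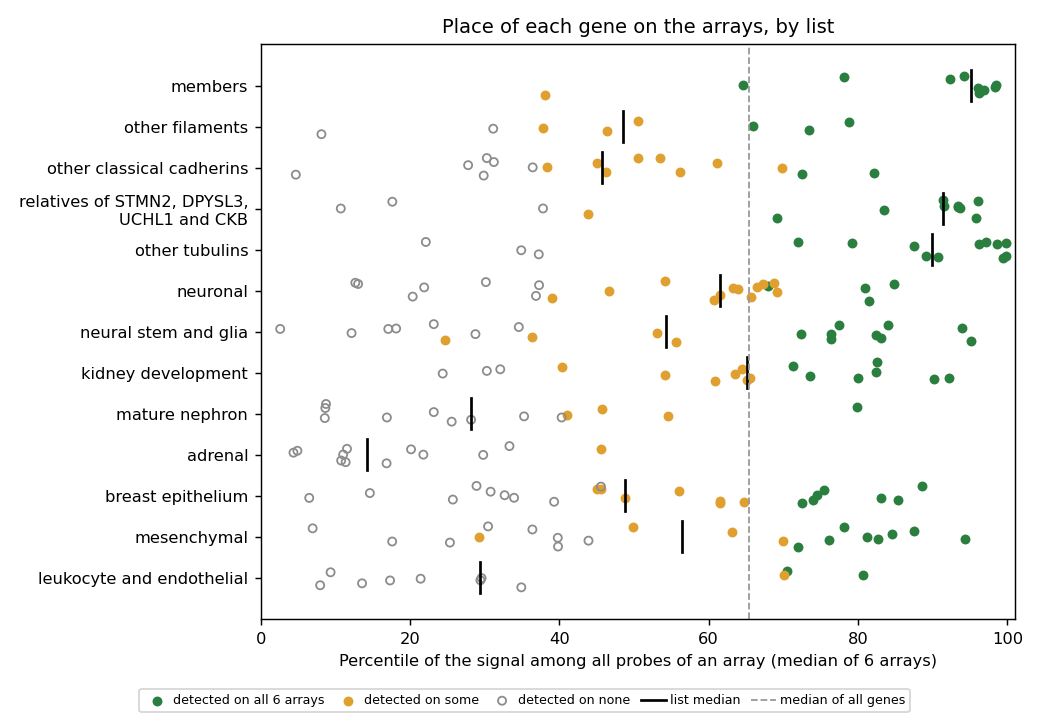
Place of each gene on the arrays, given as the percentile of its brightest probe's signal among all probes of an array (median of 6 arrays), for the members and 12 lists of related or marker genes. Filled green points were detected on all 6 arrays, orange points on some and open points on none; the members' median lies at the 95.1th percentile, that of the neuronal list at the 61.5th, that of the adrenal list at the 14.2th and that of all named genes at the 65.4th (dashed line).

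The inhibitor and vehicle samples were then compared. Of the 9 members tested, 0 passed the threshold (limma, Benjamini-Hochberg adjusted p under 0.05), against 5.45% of all 11582 genes tested, and 2 had an unadjusted p under 0.05, VIM and TUBB2B. Log2 fold changes, inhibitor over vehicle, were above 0 for 3 members and below 0 for 6, with a median of -0.13, where the median of all genes tested was 0.03. STMN2 was not tested, because neither of its probes was detected on 3 arrays. The 9 estimates lay within the 5th to 95th percentile of all genes, which ran from -0.57 to 0.70. The lowest limit of their 95% intervals was -0.79, for VIM, and the highest 0.83, for TUBB2B. The interval of NES, whose estimate was near 0, ran from -0.36 to 0.35. For each member, changes within its own interval were not excluded.

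VIM had normalized log2 levels of 12.33, 12.29 and 12.21 in the inhibitor samples, against 12.82, 12.76 and 12.63 in the vehicle samples. The groups did not overlap. Its log2 fold change was -0.46 ± 0.15 (SE, n = 3 per group, limma adjusted p = 0.0998), with a 95% interval of -0.79 to -0.13. The other VIM probe had 11.35, 11.29 and 11.29 with inhibitor and 11.90, 11.91 and 11.53 with vehicle, again without overlap, and a log2 fold change of -0.47 ± 0.16. In 4 of 16 alternative settings VIM passed the threshold, with adjusted p-values of 0.0119 to 0.587 over the 16. Its log2 fold change was below 0 in all 16, from -0.51 to -0.33.

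TUBB2B had normalized log2 levels of 11.14, 11.14 and 11.13 in the inhibitor samples, against 10.45, 10.69 and 10.89 in the vehicle samples. The inhibitor samples were nearly equal and all above the vehicle samples. The log2 fold change was 0.46 ± 0.16 (SE, n = 3 per group, limma adjusted p = 0.129; 95% interval 0.09 to 0.83). Of the 16 alternative settings 3 called TUBB2B higher. For its neighbour TUBB2A the estimate was 0.05 ± 0.18 (adjusted p = 0.887). CDH2 had 10.45, 10.43 and 10.51 with inhibitor, against 10.25, 10.10 and 10.10 with vehicle, and the groups did not overlap. Its log2 fold change was 0.31 ± 0.15 (adjusted p = 0.224; 95% interval -0.02 to 0.65), and it passed in 1 of 16 settings, that with the deposited processed values.

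The neurofilament genes did not pass the test. NEFL had 6.75, 7.09 and 6.97 with inhibitor and 7.42, 7.13 and 7.13 with vehicle, without overlap, and a log2 fold change of -0.29 ± 0.17 (limma adjusted p = 0.328), which was 0.03 with median centring. NEFM had 11.12, 10.76 and 11.01 with inhibitor and 10.74, 11.24 and 11.44 with vehicle, with overlap, and a log2 fold change of -0.18 ± 0.21 (adjusted p = 0.644). CKB had -0.31 ± 0.19 (adjusted p = 0.355), DPYSL3 -0.13 ± 0.15 (adjusted p = 0.634, and 0.08 on the log2 scale with median centring), UCHL1 0.05 ± 0.16 (adjusted p = 0.878) and NES -0.01 ± 0.16 (adjusted p = 0.988). The groups overlapped in these 4 genes. In all, the groups did not overlap for 4 of the 9 members tested, VIM, CDH2, NEFL and TUBB2B, where 31.5% of all genes tested did not overlap. The count is read against that share and is not taken as particular to the members.

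**Figure D3:**
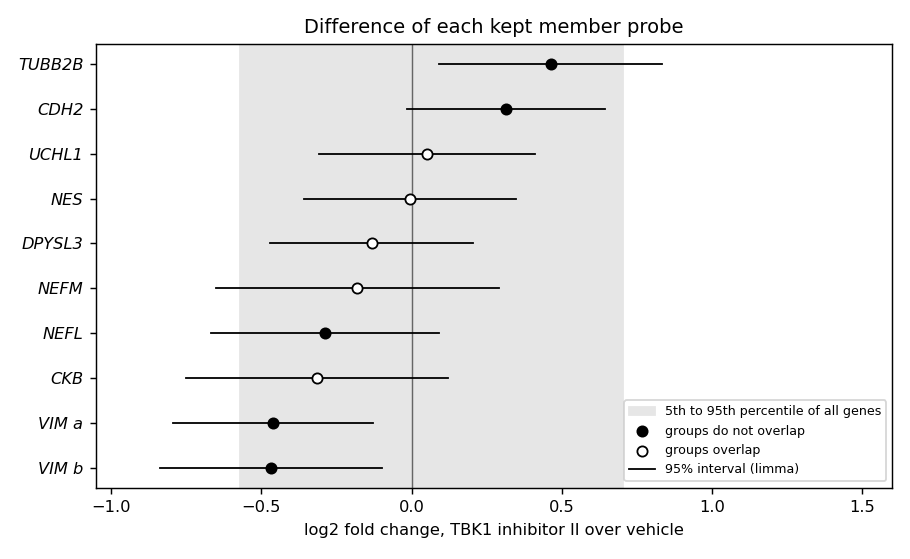
Log2 fold change, TBK1 inhibitor II over vehicle, of the 10 kept member probes with limma's 95% intervals; filled points mark probes whose groups did not overlap. TUBB2B (0.46) and CDH2 (0.31) lie highest and the 2 VIM probes (-0.46 and -0.47) lowest, all within the grey band that holds the middle of all genes (-0.57 to 0.70).

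In the related and marker lists 10 of 87 genes tested passed the threshold (11.5%), 8 higher and 2 lower, where 3.59% of all genes tested were called higher and 1.86% lower. Most of these calls rest on dim probes, and each log2 fold change is a difference between normalized levels after background correction, which widens changes of dim probes. In the neuronal list 3 of 13 genes tested rose, 0 fell and 10 did not pass. Across the 13 the median log2 fold change was 0.54, against 0.03 for all genes tested. Detection on 3 arrays was enough to be tested, so a gene could enter through the inhibitor group alone. MAP1B and INSM1, for example, were detected on 3 inhibitor arrays and 1 vehicle array. The median is thus not read as a rise of the list. SNAP25, a subunit of the complex that fuses synaptic vesicles, had signal intensities of 150.3, 202.2 and 238.5 with inhibitor, against 94.9, 109.8 and 167.9 with vehicle, and was detected on 2 of 3 vehicle arrays. It rose by a log2 fold change of 1.32 ± 0.26 (limma adjusted p = 0.0297), while the deposited processed values gave 0.41. SYT1 rose by 0.93 ± 0.20 (adjusted p = 0.0336) and SYP, the synaptic vesicle protein synaptophysin, detected on 2 of 3 vehicle arrays, by 0.87 ± 0.21 (adjusted p = 0.0476). With the deposited processed values SYT1 had 0.30 and SYP 0.24, and neither passed. The remaining probes of SNAP25 and SYT1 were detected on 0 arrays.

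Of the other tubulins 1 of 11 tested rose, TUBB3, the beta-tubulin of neurons. TUBB3 had signal intensities of 277.3, 297.9 and 390.6 with inhibitor and 133.5, 138.7 and 280.9 with vehicle, and its rise was 1.08 ± 0.23 in log2 units (limma adjusted p = 0.0336), against 0.56 with the deposited processed values. CDH10, a cadherin of the brain, rose among 5 other cadherins tested (1.16 ± 0.18, adjusted p = 0.0190), with 171.6, 187.0 and 213.0 in the inhibitor samples and 102.5, 117.4 and 157.0 in the vehicle samples, of which 2 were detected. With the deposited processed values CDH10 had 0.36. None of 3 other filament genes tested passed, the smallest p being that of SYNM (0.31 ± 0.18, adjusted p = 0.337). None of the 9 relatives of STMN2, DPYSL3, UCHL1 and CKB tested passed either, and DPYSL4 had the smallest p (-0.69 ± 0.19, adjusted p = 0.0612).

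Of 9 neural stem and glial genes tested, MSI2 rose and MSI1 fell, the RNA-binding proteins Musashi 2 and Musashi 1. MSI1 fell by 0.91 ± 0.17 (limma adjusted p = 0.0276), by 0.42 with the deposited processed values, and with median centring it had -0.61 and did not pass (adjusted p = 0.228). Over its 16 alternatives MSI1 passed in 10. The probes of MSI2 disagreed. The brighter gave a log2 difference of 1.06 ± 0.18 (adjusted p = 0.0235), the other kept probe -0.50 ± 0.17, and their mean gave 0.28 (adjusted p = 0.290). Of 12 kidney development genes tested 1 fell, 0 rose and 11 did not pass. CITED1 had signal intensities of 529.6, 492.0 and 478.3 with inhibitor, against 622.0, 1237 and 1784 with vehicle. It fell by 1.63 ± 0.28 (adjusted p = 0.0235), with all inhibitor samples below all vehicle samples and a wide spread among the vehicle samples. The only mature nephron gene tested, PODXL, had 0.51 ± 0.23 (adjusted p = 0.215), and no adrenal gene was tested.

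Of 12 breast and epithelial genes tested 0 passed, and the smallest p was that of CLDN4 (-0.52 ± 0.18, limma adjusted p = 0.115). ERBB2 had -0.34 ± 0.15 (adjusted p = 0.217) on the single detected probe of its 3, none of the 3 GRB7 probes was detected on any array, and TBK1, the kinase for which the compound is named, had 0.10 ± 0.17 (adjusted p = 0.753). Of 10 mesenchymal genes DCN, the matrix proteoglycan decorin, rose (1.29 ± 0.21, adjusted p = 0.0198), by 0.41 with the deposited processed values. Of 3 leukocyte and endothelial genes tested CD14, a receptor for bacterial lipopolysaccharide, rose (1.06 ± 0.25, adjusted p = 0.0429). CD14 had 0.32 with the deposited processed values and did not pass there. DCN and CD14 were each detected on 2 of 3 vehicle arrays through 1 probe, and their remaining probes were detected on 0 arrays. PTPRC, PECAM1 and VWF, defining markers of leukocytes and endothelium, were detected on 0 arrays. The part of other cell types, of probe brightness and of array brightness in these differences was not tested. The count of 10 was 0 without any 1 of inhibitor replicates 1, 2 and 3. It was 5 without vehicle replicate 1, 6 without vehicle replicate 2 and 7 without vehicle replicate 3. Over all genes the count of 631 lay between 4 and 369 in these runs.

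**Figure D4:**
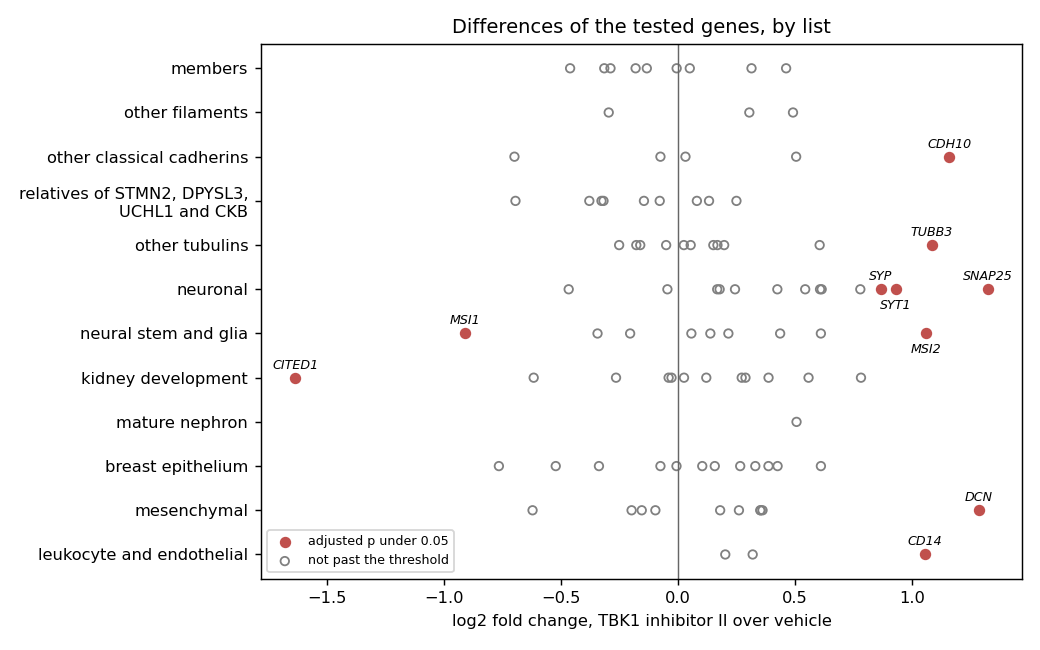
Log2 fold change, TBK1 inhibitor II over vehicle, of every tested gene in the members and in the lists; red points passed the threshold (limma adjusted p under 0.05) and carry their names. None of the 9 members is red, and the 10 red points of the other lists are 8 to the right of 0 and 2 to the left (CITED1 and MSI1).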

How the data were processed

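Total RNA of 6 samples was measured on beadchips. The deposited non-normalized table holds, per the file headers, the signal intensity of 47321 probes, each with its detection p-value. The deposited processed values are on a log2-like scale with equal column medians, 7.16, while no source used here gives the log base or the transformation. The submitters' processing notes name lumi, without a version. Here, intensities were background-corrected and quantile-normalized as in neqc (limma 3.58.1, R 4.3.3, offset 16), then put on the log2 scale. Probes detected (p under 0.05) on at least 3 of 6 arrays were kept, 19958 in all. The brightest kept probe stood for a gene. Symbols came from the platform annotation and were updated by gene ID with RefSeq (30073 of 30112 probes). Inhibitor and vehicle were compared with lmFit and eBayes, with Benjamini-Hochberg adjustment over 11582 genes. The number of arrays limits the precision. On simulated data with 200 of 11582 genes changed, 59% of log2 changes of 1 and 98% of log2 changes of 2 were recovered, with 11 false calls among 168. The simulated noise was normal and independent for each probe and array, so effects that many probes of an array share were not in it.

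The members and the 12 other lists were chosen with earlier results of these data known. From each list, the text names up to 4 genes detected on all arrays with the highest mean signal, and up to 4 past the threshold or else the 1 with the smallest p; ERBB2, GRB7 and TBK1 are always given. Genes listed as detected on none, STMN4, INA, TUBB2A and other relatives were named after their values were seen. No slide or scan date is given in the sources used here. Alternatives changed the background correction, normalization, filter, probe choice, test, block and replicates.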

Additional observations from a re-analysis of the deposited data

How the results depend on the processing

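Of all genes tested 631 passed. The count was 1357 with no background correction, 1176 with an offset of 50, 1355 with the deposited processed values, 970 with array weights, 1240 with an intensity trend and robust fit, and 4 to 369 with each array left out in turn. It was 40 with the replicate block, where members stayed at 0 and the calls in the related lists dropped to 1, SNAP25, against 10 without it. The numbers pair no samples by the labels, and deviations of same-numbered samples correlated at -0.14, 0.02 and 0.12, so no pairing was used. With median centring the median of all genes was 0.24 and 94.9% of calls were higher, against 65.9% with quantile normalization; the count of calls was 711.

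The 0 members called became 2 with no background correction (VIM and TUBB2B), 1 with an offset of 50 (VIM), 3 with the deposited processed values (VIM, CDH2 and TUBB2B) and 2 with the trend and robust fit (VIM and TUBB2B). It was 0 with each array left out. The cause was not tested. Besides the block and the left-out arrays, calls in the related lists ended for MSI1 with median centring (-0.61), for MSI2 with the mean of probes (0.28), for SYP, SYT1 and CD14 with the deposited processed values (0.24, 0.30 and 0.32), for SYP with no background correction (0.31), for SYP, TUBB3 and CD14 with no filter on dim probes, and for CD14 with array weights. These lists had 10 calls. The count was 11 with no background correction or with median centring, 13 with an offset of 50 or with array weights. It was 12 with the trend and robust fit, 10 with the deposited processed values, 9 with the mean of probes and 7 with no filter. In some settings genes outside the 10 thus passed. The count was 6 with a detection p under 0.01 on all arrays, where fewer genes were tested (54). It was 0 to 7 with each array left out. Members detected on all arrays numbered 9 in each such run. VIM, CDH2, NEFM, CKB and TUBB2B kept their direction in all 16 settings. Median centring gave 0.029 for NEFL, 0.076 for DPYSL3 and 0.14 for NES. With each array left out, UCHL1 ran from -0.031 to 0.12, below 0 without inhibitor replicate 3 or vehicle replicate 2, and NES from -0.10 to 0.056, above 0 without inhibitor replicate 2 or 3 or vehicle replicate 2. The slide as a block was not run, since no source used here gives it.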
